A study of Mus musculus with 4 samples.

Results

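The complement genes described here are the 8 genes C1qa, C1qb, C1qc, C4b, C3, Cfb, C3ar1 and C5ar1. They were chosen by symbol among the 19465 genes that each matrix lists, with earlier results of these data known. All 8 had UMIs (unique molecular identifiers, counts of captured molecules) in every section. They were measured by Visium spatial transcriptomics, which reads probes at barcoded spots on a slide, in formalin-fixed, paraffin-embedded mouse heart sections. Each spot is a small region that can hold several cells of different types. All animals were wild type FVB/NJ mice immunized with a peptide of the cardiac myosin heavy chain MyHCα and given anti-PD-1 and anti-CTLA-4, a pair of immune checkpoint inhibitors (ICIs). In the antibody group, 2 sections, the mice had also received an IL-17A neutralizing antibody, and the labels call the myocarditis mitigated. The other group, also 2 sections, had the ICIs alone, and the labels record myocarditis in it. Each group holds 1 section of batch 1 and 1 section of batch 2, which are used below to name the sections. No untreated heart was analysed here, no label gives age, sex or dose, and no label says that the sections of a group came from separate mice, so p-values measure the spread between sections, which may be technical. FVB/NJ mice carry an inactive allele of Hc, the gene of C5, which is background to the C5a receptor; Hc was at 0.31 and 0.26 CPM in the antibody sections and 0.13 and 0.22 in the ICI-alone sections.

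Complement is a protease cascade of blood and tissue fluid that marks targets for removal and calls in leukocytes. In the classical branch C1q, assembled from the products of C1qa, C1qb and C1qc, recognises bound antibody or damaged cells and leads to cleavage of C4. All branches meet at C3, which the alternative branch amplifies through factor B, and the released fragments C3a and C5a act on myeloid cells through the anaphylatoxin receptors C3aR1 and C5aR1. In the heart, as in most tissues, macrophages are a main source of C1q, while C3, C4 and factor B are also made by fibroblasts and other stromal cells.

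The antibody sections held 47882576 UMIs (batch 1) and 33005923 UMIs (batch 2) over 2604 and 2585 spots, and the ICI-alone sections held 73167202 and 66255242 UMIs over 2503 and 3052 spots. The 4 sections share 1670 of 3774 distinct barcodes, which on this platform name positions on the slide and not cells. A list of 5 cardiomyocyte genes summed to 53563 and 45196 CPM (UMIs scaled to a common library size) in the antibody sections and 32584 and 20821 in the ICI-alone sections, with every gene detected. Spots called leukocyte-rich, defined by 30 or more UMIs of a 20-gene leukocyte panel after thinning to 5000 UMIs, made up 9.004% and 3.26% of the antibody sections and 9.79% and 17.7% of the ICI-alone sections. None of the 8 genes is in that panel. Spots rich in atrial transcripts without Nppa were found in antibody batch 2 only (163 spots). With Nppa counted among the atrial genes, such spots numbered 2 and 172 in the antibody sections and 63 and 536 in the ICI-alone sections. Each of these sets of spots was left out in an alternative.

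Levels are in CPM, the share of a library's UMIs on the usual scale, with libraries scaled by TMM (trimmed mean of M values) unless library size is named, and fold changes as log2 of antibody over ICI alone with their standard error (SE). Tests are the quasi-likelihood F test of edgeR on UMIs summed per section, with Benjamini-Hochberg adjustment over all genes tested and a threshold of 0.05. Probes differ between genes, so no level is set against that of another gene.

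Promoter windows are shown for 3 of the 8 genes: C1qb for the C1q genes, which lie side by side on chromosome 4, C3 for the point where the branches meet, and C3ar1 for the receptors. No window was available for C1qa, C4b and Cfb, so the C4 and factor B steps are not covered. The 250 bases before the annotated start are given 5′ to 3′ on the gene's strand (all on the minus strand), from the RefSeq table of GRCm38.p6. Capitals mark matches on either strand to 4 motifs: NF-kB (GGGA, any 4 bases and CC, in 17.6% of 32851 promoter windows of the same length), C/EBP (TTNNGNAA, 36.8%), PU.1 (GAGGAA, 23.3%) and AP-1 (TGANTCA, 6.75%).
C1qb (chr4:136886201-136886450): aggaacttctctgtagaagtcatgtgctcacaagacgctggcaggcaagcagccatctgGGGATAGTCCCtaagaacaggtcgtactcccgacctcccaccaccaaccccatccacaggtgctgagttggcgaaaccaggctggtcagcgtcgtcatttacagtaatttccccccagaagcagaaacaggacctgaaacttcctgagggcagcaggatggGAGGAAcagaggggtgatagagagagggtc
C3 (chr17:57228137-57228386): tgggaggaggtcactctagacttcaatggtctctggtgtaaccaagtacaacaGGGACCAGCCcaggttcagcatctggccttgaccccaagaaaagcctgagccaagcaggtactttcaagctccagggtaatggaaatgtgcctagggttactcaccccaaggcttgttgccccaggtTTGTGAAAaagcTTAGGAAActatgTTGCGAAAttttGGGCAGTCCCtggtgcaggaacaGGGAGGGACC
C3ar1 (chr6:122856158-122856407): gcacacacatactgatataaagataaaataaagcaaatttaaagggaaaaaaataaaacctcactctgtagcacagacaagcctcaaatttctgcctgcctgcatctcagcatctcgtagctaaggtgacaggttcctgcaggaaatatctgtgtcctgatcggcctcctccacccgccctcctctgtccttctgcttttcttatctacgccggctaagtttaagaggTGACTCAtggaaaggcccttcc
The C3 window holds 3 NF-kB matches and 4 C/EBP matches, of which the match at bases -45 to -38 from the start reads on both strands. The C1qb window holds 2 NF-kB matches that overlap and 1 PU.1 match, and the C3ar1 window holds 1 AP-1 match at bases -22 to -16. The window of C5ar1, the other receptor gene, is not shown and holds 0 AP-1 matches and 1 C/EBP match. These are matches of letters and were not tested as binding sites. In GRCm38.p6 the genes span chr4:136895916-136898844 (C1qa), chr4:136880126-136886200 (C1qb), chr4:136889801-136892936 (C1qc), chr17:34728139-34743902 (C4b), chr17:57203967-57228136 (C3), chr17:34856374-34862514 (Cfb), chr6:122847140-122856157 (C3ar1) and chr7:16246743-16259540 (C5ar1), so C4b and Cfb lie near each other on chromosome 17.

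The receptors showed the treatment contrast of these genes that passed the test. C3ar1 encodes the C3a receptor of macrophages and other myeloid cells. It had 52.8 and 50.7 CPM in the antibody sections, against 171 and 201 in the ICI-alone sections. C5ar1, the C5a receptor of neutrophils and macrophages, had 47.7 and 46.0 in the antibody sections, against 120 and 171 in the ICI-alone sections. For both receptors the antibody sections lay close together and well below both ICI-alone sections. C3ar1 averaged 51.7 ± 1.46 in antibody sections and 186 ± 20.7 in ICI-alone sections (SD, n = 2 each), a log2 fold change of -1.85 ± 0.17 (SE) with an edgeR adjusted p of 0.0175. C5ar1 averaged 46.9 ± 1.21 in antibody sections and 145 ± 35.9 in ICI-alone sections (SD, n = 2 each), a log2 fold change of -1.63 ± 0.20 (SE) with an edgeR adjusted p of 0.0210. Both calls were kept in the main setting and all 14 alternatives. These levels rest on 2527 and 1784 UMIs of C3ar1 in the antibody sections and 11461 and 13652 in the ICI-alone sections, and on 2287 and 1620 UMIs of C5ar1 in the antibody sections and 8018 and 11609 in the ICI-alone sections. In a spot, fewer cells of a type and less RNA per cell cannot be told apart.

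The C1q genes, which encode the chains of the recognition protein, were lower in both antibody sections than in either ICI-alone section without passing the test. C1qa had 264 and 409 CPM in the antibody sections, against 586 and 653 in the ICI-alone sections. C1qb had 171 and 323 in the antibody sections, against 385 and 401 in the ICI-alone sections. C1qc had 213 and 350 in the antibody sections, against 508 and 576 in the ICI-alone sections. In each case the batch 1 antibody section was the lowest of the 4. The log2 fold changes were -0.88 ± 0.27 for C1qa (adjusted p 0.0738), -0.67 ± 0.31 for C1qb (0.165) and -0.94 ± 0.28 for C1qc (0.0689), by edgeR. With the batch number as a block, which the labels allow as a pairing, edgeR called C1qa at -0.91 (adjusted p 0.0373) and C1qc at -0.99 (adjusted p 0.0320). Without ICI-alone batch 1 their adjusted p was 0.0132 and 0.00824, and DESeq2 called both as well. Where a section is left out, its group is 1 section, assumed to vary like the other group. Without antibody batch 1 both were smaller and not called, at -0.60 for C1qa (adjusted p 0.346) and -0.63 for C1qc (0.308), and without antibody batch 2 they were larger, at -1.23 and -1.35, and still not called. Over 14 alternatives the adjusted p ran from 0.00250 to 0.346 for C1qa and from 0.00215 to 0.308 for C1qc, and 3 alternatives called each. C1qb was called in none of the 14 (adjusted p from 0.0607 to 0.605), with a log2 fold change of -0.29 without antibody batch 1 and -1.20 without antibody batch 2.

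Among the remaining components the differences were smaller. C4b, the complement C4 gene, had 52.1 and 90.6 CPM in the antibody sections, against 96.8 and 122 in the ICI-alone sections, with no overlap. Its log2 fold change was -0.61 ± 0.27 (SE; edgeR adjusted p 0.147), and with the batch block it was called at -0.66 (adjusted p 0.0374); without ICI-alone batch 1 its adjusted p was 0.0138. These were the 2 of 14 alternatives that called it, and its log2 fold change was -0.27 without antibody batch 1 (adjusted p 0.504) and -1.07 without antibody batch 2. C4b is nearly identical to C4a, which was not analysed here, so its counts may include reads of that gene. C3, the hub of the cascade, had 763 and 1010 in the antibody sections, against 1009 and 1228 in the ICI-alone sections. The batch 2 antibody section and the batch 1 ICI-alone section were level, so the groups overlapped, and the log2 fold change was -0.33 ± 0.28 (SE; edgeR adjusted p 0.403), from -0.55 to -0.15 over the alternatives. Cfb, the factor B of the alternative branch, had 101 and 150 in the antibody sections, against 148 and 172 in the ICI-alone sections. These groups overlapped too, with a log2 fold change of -0.35 ± 0.22 (SE; edgeR adjusted p 0.281), from -0.66 to -0.10 over the alternatives.

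**Figure D1:**
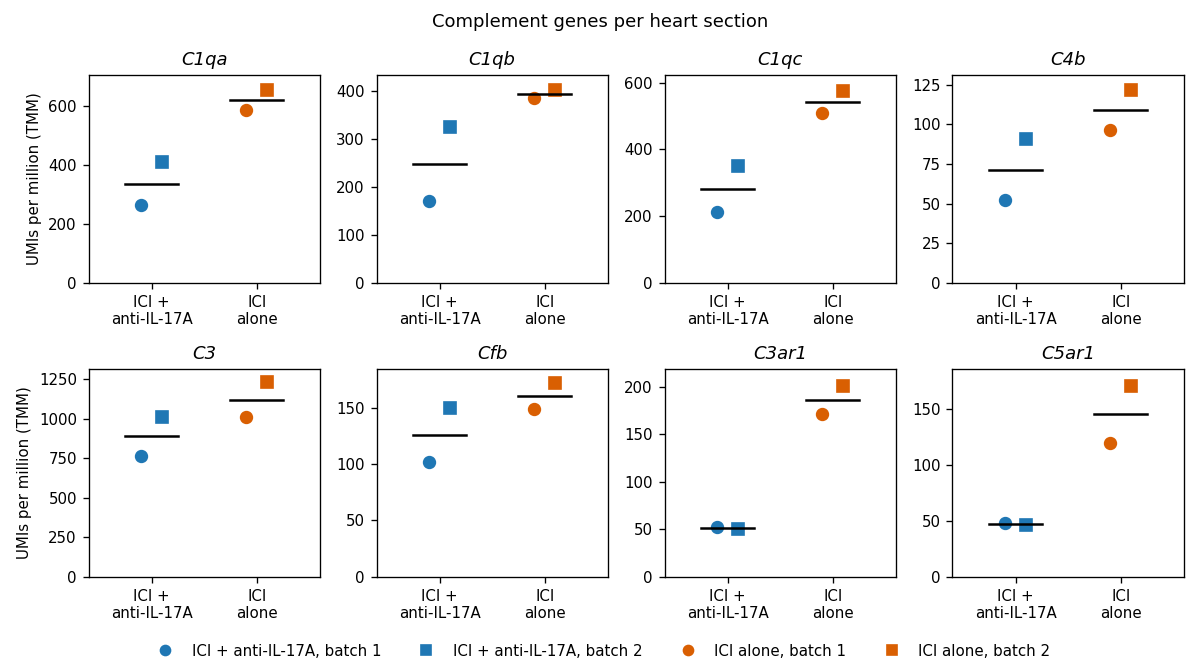
CPM after TMM scaling (y axis, from 0) for each of the 8 genes in the 2 antibody sections (left, blue) and the 2 ICI-alone sections (right, orange). Circles are batch 1, squares batch 2 and bars the group means; C3ar1 and C5ar1 are near 50 in both antibody sections and at least 120 in the ICI-alone sections, while the groups overlap for C3 and Cfb.

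Counted together, 2 of the 8 genes fell and none rose, against 8.81% of all 18817 genes tested that fell and 3.03% that rose. The median log2 fold change was -0.78 over the 8 genes and 0.09 over all genes. Scaled by library size alone, 840 genes rose and 1029 fell, against 571 and 1658 with TMM, and the same number of the 8, 2, fell. The antibody sections lay below the ICI-alone sections without overlap for 6 of the 8, against 32.2% of all genes. The 8 genes were chosen with earlier results of these data known, so these shares do not compare an independent set. The blocked fit called 5 of the 8, all lower, among 3839 genes called, where the fit without the block called 2229. DESeq2 called 4 of the 8 among 3315 genes.

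Some marker lists were lower in both antibody sections, and others were not. A list of 12 macrophage genes, all detected in every section, summed to 612 and 750 CPM in the antibody sections and 1142 and 1564 in the ICI-alone sections (library size scaling). A list of 7 neutrophil genes, all detected, summed to 57.2 and 52.1 in the antibody sections and 342 and 562 in the ICI-alone sections. A list of 7 fibroblast genes, all detected, summed to 2551 and 2835 in the antibody sections and 9175 and 21420 in the ICI-alone sections. The part of these lists in the differences of the 8 genes was not tested.

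Set against the macrophage list, the genes separated. Per 1000 macrophage-list UMIs, C3ar1 had 86.2 and 72.1 UMIs in the antibody sections and 137 and 132 in the ICI-alone sections, and C5ar1 had 78.1 and 65.5 in the antibody sections and 96.0 and 112 in the ICI-alone sections. Both receptors were thus lower in the antibody sections on this scale as well, without overlap. C1qa had 432 and 581 per 1000 in the antibody sections and 468 and 429 in the ICI-alone sections, with the groups interleaved. C3 had 1247 and 1437 per 1000 in the antibody sections and 807 and 806 in the ICI-alone sections. Cfb had 166 and 213 in the antibody sections and 119 and 113 in the ICI-alone sections. C4b had 85.2 and 128.9 in the antibody sections and 77.4 and 79.8 in the ICI-alone sections. C3, Cfb and C4b were therefore higher in the antibody sections per macrophage-list UMI, without overlap, whereas their section levels overlapped (C3 and Cfb) or were lower there (C4b). The list itself was lower in the antibody sections, so a gene that fell by less than the list is higher on this scale. These ratios are descriptions of 2 sections a group and carry no test.

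Position within the sections set the genes concentrated in leukocyte-rich spots apart from C4b, which was lower there, and from C3. The C1q genes were lower there with TMM, while by library size their direction differed between sections. Leukocyte-rich spots were compared with the other spots of at least 5000 UMIs of the same section, with the section as a block. C5ar1 had 175 and 105 CPM in leukocyte-rich spots of the antibody sections, where the other spots had 33.9 and 46.5. In the ICI-alone sections C5ar1 had 302 and 333 in leukocyte-rich spots, where the other spots had 98.3 and 134. C5ar1 was higher in leukocyte-rich spots of all 4 sections (log2 ratio 1.56 ± 0.19, SE; edgeR adjusted p 0.000175). C3ar1 had 156 and 82.1 in leukocyte-rich and 43.0 and 53.2 in other spots of the antibody sections, against 438 and 430 in leukocyte-rich and 140 and 146 in other spots of the ICI-alone sections. It was likewise higher in leukocyte-rich spots of all 4 sections (log2 ratio 1.39 ± 0.20, SE; edgeR adjusted p 0.000425). Cfb had 258 and 422 in leukocyte-rich and 89.8 and 147 in other spots of the antibody sections, against 282 and 283 in leukocyte-rich and 136 and 152 in other spots of the ICI-alone sections. Its log2 ratio was 1.18 ± 0.15 (SE; edgeR adjusted p 0.000234), again with all 4 sections in the same direction.

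The share of a gene's UMIs that fell in leukocyte-rich spots can be set against the share of all UMIs that these spots held, which was 9.99% and 4.42% in the antibody sections and 12.2% and 22.2% in the ICI-alone sections. For C5ar1 this share was 44.7% and 11.1% in the antibody sections and 32.5% and 44.4% in the ICI-alone sections. For C3ar1 it was 36.2% and 7.87% in the antibody sections and 33.0% and 48.6% in the ICI-alone sections. For C1qa it was 10.97% and 4.45% in the antibody sections and 8.40% and 22.2% in the ICI-alone sections. The 2 receptors were thus above the share of all UMIs in every section, from 1.78 times (C3ar1, antibody batch 2) to 4.47 times (C5ar1, antibody batch 1). C1qa was near it in 3 sections and below it in ICI-alone batch 1, at 0.686 times. Antibody batch 2, with 83 leukocyte-rich spots, had the lowest share for all 3 genes and for all UMIs.

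C4b ran the other way, and so did the C1q genes with TMM. By library size alone C1qa had 290 and 439 CPM in leukocyte-rich and 261 and 436 in other spots of the antibody sections. In the ICI-alone sections it had 367 and 670 in leukocyte-rich spots, against 558 and 670 in other spots. C4b had 35.8 and 61.6 CPM in leukocyte-rich and 60.3 and 99.6 in other spots of the antibody sections, against 43.4 and 94.1 in leukocyte-rich and 111 and 141 in other spots of the ICI-alone sections. It was lower in leukocyte-rich spots of all 4 sections (log2 ratio -0.91 ± 0.15, SE; edgeR adjusted p 0.000833). C1qb had 120 and 300 in leukocyte-rich and 199 and 351 in other spots of the antibody sections, against 243 and 415 in leukocyte-rich and 429 and 433 in other spots of the ICI-alone sections. The log2 ratios were -0.52 ± 0.17 for C1qb (edgeR adjusted p 0.0351) and -0.45 ± 0.16 for C1qa (0.0493), and -0.43 ± 0.18 for C1qc, which missed the threshold (0.0714). Each of these C1q calls was lost in 7 of 11 alternatives, among them leaving out ICI-alone batch 1 (adjusted p 0.258 for C1qa and 0.178 for C1qb) or antibody batch 2 (0.0962 and 0.0566) and scaling by library size alone (log2 ratios of -0.10 and -0.18). C1qa also lost its call without ICI-alone batch 2 (0.0586) and C1qb without antibody batch 1 (0.0637), and C1qc gained one without ICI-alone batch 2 (0.0429). C4b, Cfb, C3ar1 and C5ar1 kept their calls in all 11 alternatives.

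In this comparison 3 of the 8 genes were higher in leukocyte-rich spots and 3 lower, against 21.6% of genes higher and 24% lower. Scaled by library size alone, 6739 genes were higher and 2967 lower, against 3948 higher and 4387 lower with TMM, and of the 8 genes 3 were then higher and 1 lower; the median over all genes was 0.52 with library size and 0.18 with TMM, a shift by which every log2 ratio between these classes moves. The median over the 8 genes was -0.20 with TMM.

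C3 had no common direction. In the antibody sections it had 1362 and 1505 CPM in leukocyte-rich spots, against 760 and 1065 in the other spots. In the ICI-alone sections it had 760 and 1047 in leukocyte-rich spots, against 1105 and 1398 in the other spots. The per-section log2 ratios were thus 0.84 and 0.50 in the antibody sections and -0.54 and -0.42 in the ICI-alone sections, and the average contrast was 0.03 ± 0.26 (SE; edgeR adjusted p 0.926). The difference of the contrasts between treatments was 1.10 ± 0.36 on the log2 scale, with an unadjusted p of 0.00992 and an edgeR adjusted p of 0.176. It did not pass the test, and neither did that of any of the other 7 genes with edgeR, against 0.985% of all genes; at an unadjusted p of 0.05 C3 was the 1 gene of the 8 to pass, and DESeq2 called 1. Without antibody batch 2 the adjusted p of C3 was 0.0150 and by DESeq2 0.0301, while without ICI-alone batch 2 it was 0.809.

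**Figure D2:**
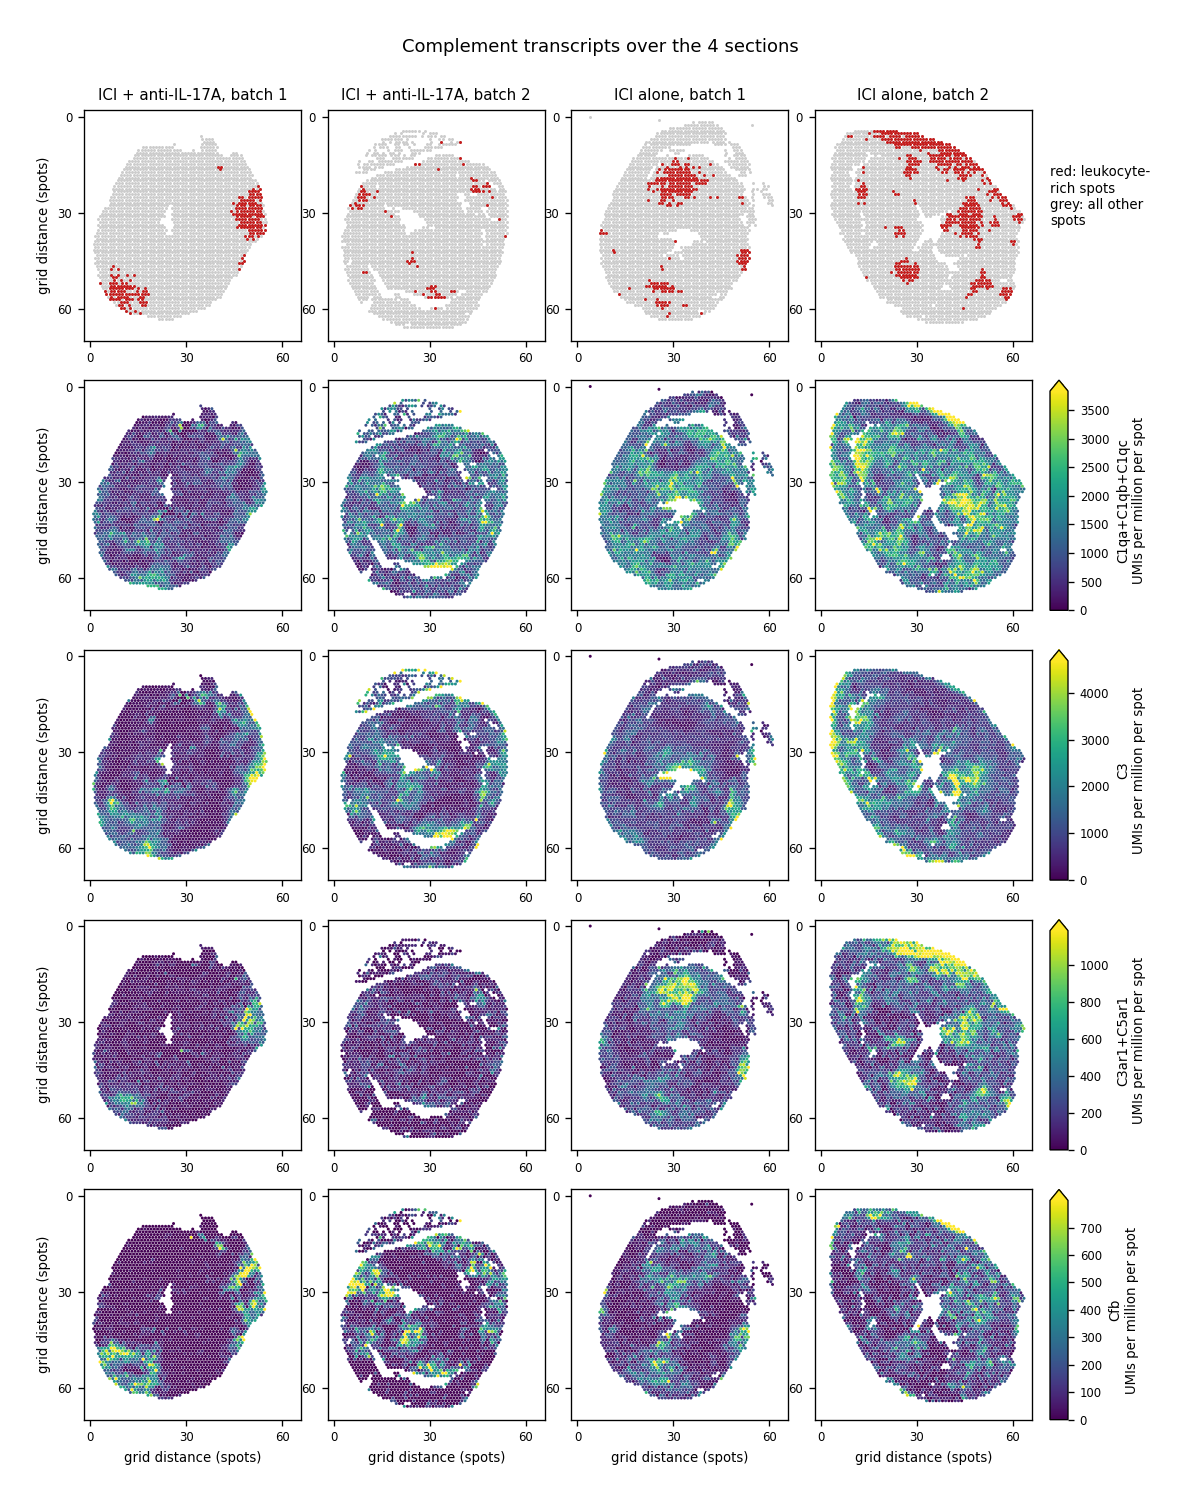
Each point is a spot at its place on the capture grid (axes in spot distances), with the antibody sections in the left columns and the ICI-alone sections in the right columns. The top row marks leukocyte-rich spots in red; the rows below colour each spot by CPM of the 3 C1q genes summed, C3, the 2 receptors summed and Cfb, each row on 1 scale ending at the 99th percentile. The receptors are brightest inside the leukocyte-rich areas of the ICI-alone sections, Cfb on and around those of the antibody sections, and C3 along section borders and cavities as well.

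Distance from the leukocyte-rich spots, counted in steps on the hexagonal grid and scaled by library size, gave the same grouping in finer detail. C5ar1 was lower at each farther ring in every section: at 0, 1 and 9 or more steps it was 215, 89.5 and 16.4 CPM in antibody batch 1, and 351, 189 and 73.8 in ICI-alone batch 2. In both, the first step held more of that difference than all later steps together. Cfb had its highest value 1 step outside the leukocyte-rich spots in antibody batch 1, 418 against 316 inside, and inside them in the other 3 sections. At 9 or more steps Cfb was at 10.0 and 56.5 in the antibody sections and 37.5 and 104 in the ICI-alone sections.

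C1qa was highest 2 or 3 steps away in every section. In antibody batch 1 it was 290 inside and 474 at 2 steps, and in ICI-alone batch 1 it was 367 inside and 684 at 3 steps. C3 was lower far from the leukocyte-rich spots of the antibody sections, with 1670 and 1767 inside and 339 and 763 at 9 or more steps. In the ICI-alone sections C3 was 732 and 1102 inside and 937 and 2396 at 9 or more steps. C4b was higher outward in the ICI-alone sections too, with 41.9 and 98.97 inside and 119 and 234 at 9 or more steps, whereas the antibody sections had 44.0 and 72.3 inside and 38.2 and 90.8 at that distance. Every one of these rings held at least 83 spots.

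**Figure D3:**
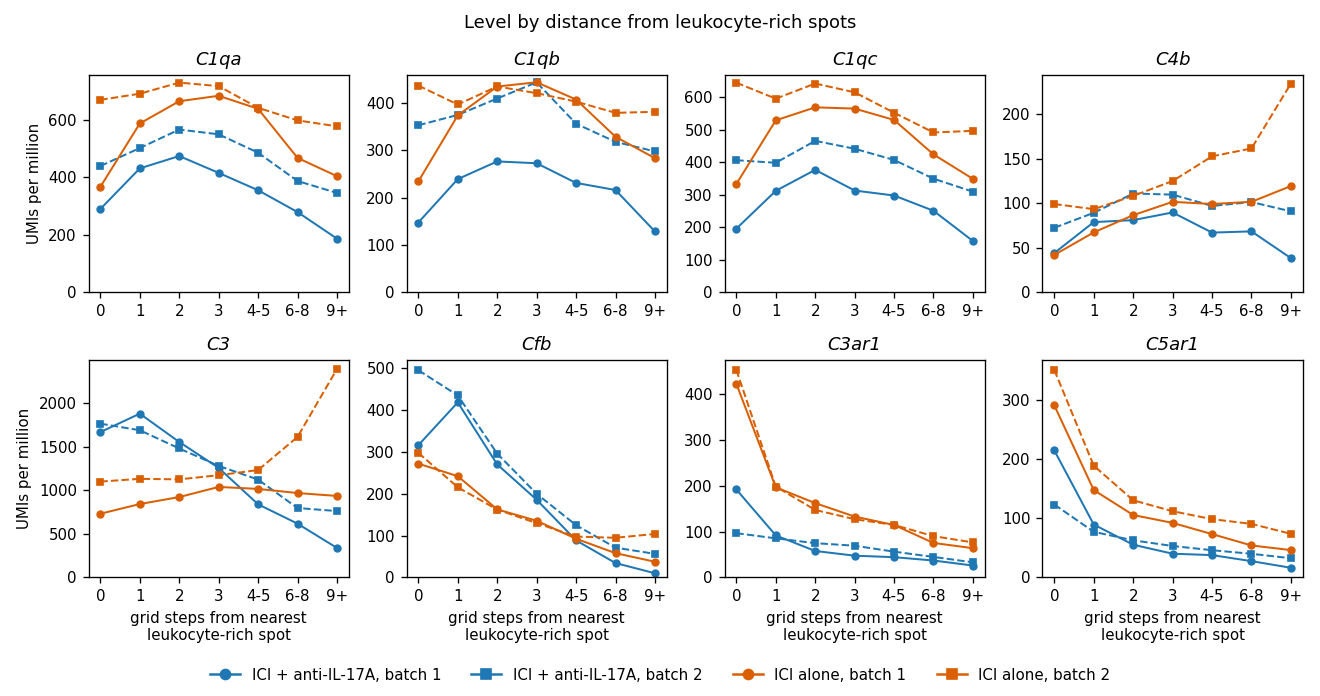
CPM by library size (y axis, from 0) against the number of grid steps from the nearest leukocyte-rich spot (x axis, 0 being the leukocyte-rich spots themselves), 1 panel a gene and 1 line a section (blue antibody, orange ICI alone, solid batch 1, dashed batch 2). C3ar1 and C5ar1 are highest at 0 in all 4 sections, C1qa peaks 2 or 3 steps away in all 4, and C3 at 4 or more steps is below its level at 0 in the antibody sections and above it in the ICI-alone sections.

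Within each spot class the treatments were then compared over sections. In leukocyte-rich spots none of the 8 genes was called with edgeR, against 0.991% of all 13317 genes; 3 of the 8 had an unadjusted p under 0.05, as did 3431 genes in all. The 132 genes called were 76 higher and 56 lower, and with library size alone 280 higher and 50 lower. C3ar1 had 156 and 82.1 CPM in the antibody sections and 438 and 430 in the ICI-alone sections, a log2 fold change of -1.74 ± 0.31 (SE) with an edgeR adjusted p of 0.0544. C5ar1 was at -1.07 ± 0.27 (adjusted p 0.0821), and C3 at 0.74 ± 0.24 (adjusted p 0.128), with edgeR. The direction of C3 was thus opposite to that of the receptors here, and its antibody sections, 1362 and 1505, lay above its ICI-alone sections, 760 and 1047. DESeq2 called C3ar1 and C5ar1 (adjusted p 2.31e-05 and 0.0155) among 540 genes. Without ICI-alone batch 1, 5 of the 8 were called by edgeR among 678 genes, and without antibody batch 1 C3ar1 was (adjusted p 0.0414) among 32 genes. In these spots the neutrophil list summed to 319 and 238 CPM in the antibody sections and 621 and 812 in the ICI-alone sections, and the macrophage list to 1969 and 1802 in the antibody sections and 2607 and 2930 in the ICI-alone sections. The fibroblast list was also lower with the antibody, at 5889 and 4011 in the antibody sections and 8690 and 23935 in the ICI-alone sections. Other lists were higher there, as C3 was. The T cell list summed to 273 and 320 in the antibody sections and 110 and 87.9 in the ICI-alone sections, the dendritic cell list to 81.4 and 105 in the antibody sections and 39.6 and 33.8 in the ICI-alone sections, and the mesothelial list to 74.4 and 32.4 in the antibody sections and 10.5 and 20.2 in the ICI-alone sections. The part of these lists was not tested.

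In the other spots C3ar1 and C5ar1 fell, the 2 genes of the 8 called, against 5.97% of genes lower. Their log2 fold changes were -1.58 ± 0.17 and -1.55 ± 0.22 (SE), each with an edgeR adjusted p of 0.0277. All genes called were 293 higher and 1082 lower with TMM, and 306 higher and 522 lower with library size alone. Without antibody batch 1 the adjusted p was 0.163 for both, at -1.47 and -1.37. The batch block added C1qa (-0.92, adjusted p 0.0156), C1qc (-0.96, 0.0157) and C4b (-0.71, 0.0196), fitted with edgeR, among 4144 genes called where 1375 were without it.

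**Figure D4:**
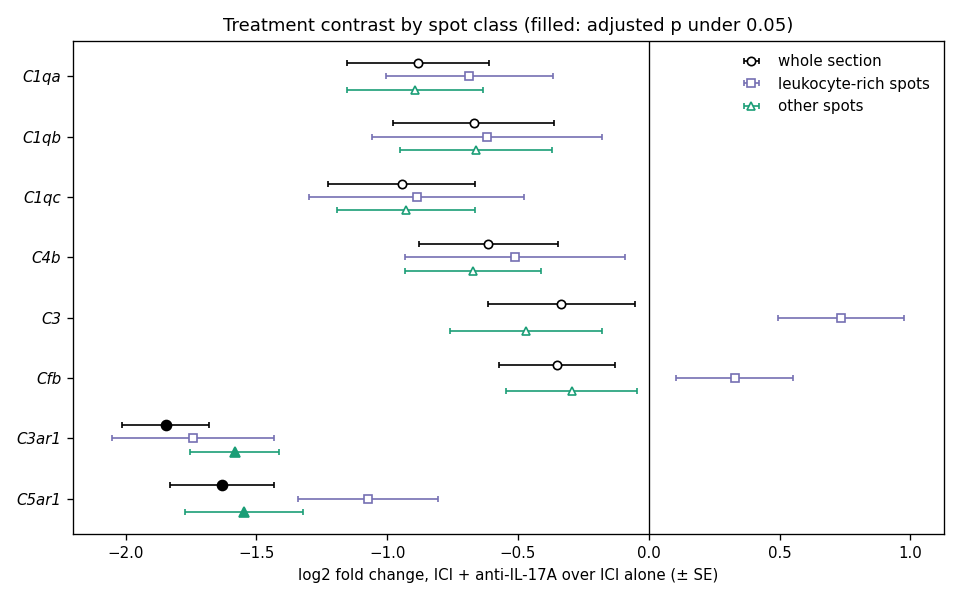
Log2 fold change of antibody over ICI alone (x axis) with its standard error for the 8 genes, in whole sections (black), leukocyte-rich spots (purple) and other spots (green); filled symbols have an adjusted p under 0.05. C3ar1 and C5ar1 lie left of 0 in all 3 sets, and C3 and Cfb lie right of 0 in leukocyte-rich spots only.

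After thinning each spot to 5000 UMIs, which left out 105 and 37 spots of the antibody sections and 11 and 4 of the ICI-alone sections, C3ar1 was detected in 20.2% (95% Wilson interval 18.7 to 21.8%) and 20.9% (19.3 to 22.5%) of spots in the antibody sections. The ICI-alone sections had 42.7% (40.8 to 44.6%) and 50.2% (48.4 to 52.0%). Without thinning the shares were 46.5% and 43.1% in the antibody sections and 83.3% and 84.6% in the ICI-alone sections. These intervals cover counting error only, and no area of a section is known to lack the transcript, so there was no background share to set beside them.

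Matrix-rich spots, the top 10% of each section by a 10-gene collagen and fibroblast panel among spots outside the leukocyte-rich class, held more of nearly all of these transcripts. Of the 8 genes, 7 were higher there than in the remaining spots, against 17.9% of all genes. With TMM 2901 genes were higher and 2875 lower; with library size alone 5754 were higher and 1762 lower, and all 8 genes were higher. Cfb had 299 and 300 CPM in matrix-rich spots and 57.5 and 125 in the remaining spots of the antibody sections, against 213 and 179 in matrix-rich and 111 and 137 in the remaining spots of the ICI-alone sections (log2 ratio 1.23 ± 0.28, SE; edgeR adjusted p 0.0130). C3 had 2022 and 2083 in matrix-rich and 562 and 920 in the remaining spots of the antibody sections, against 1276 and 1623 in matrix-rich and 983 and 1264 in the remaining spots of the ICI-alone sections (log2 ratio 0.93 ± 0.26, SE; edgeR adjusted p 0.0259). Both genes were higher in matrix-rich spots of all 4 sections, by more in each antibody section than in either ICI-alone section. The matrix panel was lower in both whole antibody sections, and in the matrix-rich spots of antibody batch 1, than in the ICI-alone sections, as given below. The log2 ratios of C3ar1 and C5ar1 were 0.85 ± 0.11 and 0.70 ± 0.17, and those of the C1q genes lay between 0.45 and 0.58. Without antibody batch 2 only C3ar1 of the 8 was still called, among 4022 genes against 5776 with all sections, with C3 at 0.83 (adjusted p 0.103) and Cfb at 1.1997 (adjusted p 0.0603) by edgeR.

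C4b was the exception. It had 129 and 158 CPM in matrix-rich and 49.2 and 91.2 in the remaining spots of the antibody sections, against 101 and 125 in matrix-rich and 103 and 134 in the remaining spots of the ICI-alone sections. Its ratio was above 0 on the log2 scale in the antibody sections (1.39 and 0.79) and near 0 in the ICI-alone sections (-0.04 and -0.10), and the common contrast of 0.50 ± 0.24 was not called (edgeR adjusted p 0.1499). A test of the difference between treatments, added after these values were seen, gave 1.17 ± 0.23 for C4b, 1.15 ± 0.29 for C3 and 1.16 ± 0.37 for Cfb, with edgeR adjusted p of 0.437, 0.510 and 0.590. None of the 8 genes and 0% of all genes passed that edgeR test, while 3 of the 8 and 1249 genes in all had an unadjusted p under 0.05; DESeq2 was not run on it. Without antibody batch 2 all 3 genes passed, with adjusted p of 0.0109, 0.0170 and 0.0170, among 417 genes. The matrix panel itself differed in level between the groups, at 2757 and 3077 CPM in whole antibody sections and 9698 and 22557 in whole ICI-alone sections. Matrix-rich spots were chosen within each section. In them the panel summed to 7462 CPM in antibody batch 1 and to 28346 and 56256 in the ICI-alone sections. All spots outside the leukocyte-rich class of the ICI-alone sections were at 9750 and 21809, above the matrix-rich spots of antibody batch 1. In matrix-rich spots the macrophage list summed to 1072 and 1155 CPM in the antibody sections and 1484 and 1594 in the ICI-alone sections, against 461 and 701 CPM in all spots outside the leukocyte-rich class (matrix-rich spots included) of the antibody sections and 937 and 1175 in those of the ICI-alone sections. It was thus higher in matrix-rich spots of all 4 sections, and its part in these results was not tested.

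At the tissue edge, taken as spots with fewer than 6 neighbours under tissue, C3 and C4b were higher than in the interior. C3 had 1550 and 1466 CPM at the edge and 731 and 959 in the interior of the antibody sections, against 1413 and 1994 at the edge and 900 and 1126 in the interior of the ICI-alone sections. C4b had 84.0 and 131 at the edge and 51.9 and 86.1 in the interior of the antibody sections, against 132 and 254 at the edge and 87.0 and 104 in the interior of the ICI-alone sections. Both were higher at the edge in all 4 sections. The log2 ratios were 0.74 ± 0.09 for C3 (edgeR adjusted p 0.0102) and 0.75 ± 0.11 for C4b (adjusted p 0.0146). These were 2 of the 8 genes, against 1.32% of all genes (211 higher and 131 lower with TMM, 440 higher and 25 lower with library size alone); the other 6 had log2 ratios between 0.01 and 0.31 and were not called.

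Both calls were kept when each section was left out in turn. With the edge widened to 2 spots neither was called (C3 0.63, adjusted p 0.123; C4b 0.56, adjusted p 0.185). A list of 7 mesothelial genes, which mark the epicardial lining, summed to 198 and 101 CPM at the edge and 12.8 and 9.95 in the interior of the antibody sections, against 21.6 and 74.4 at the edge and 8.23 and 12.2 in the interior of the ICI-alone sections; its part in the edge result was not tested. The fibroblast list was also higher at the edge in all 4 sections, at 5079 and 3745 CPM at the edge and 2334 and 2573 in the interior of the antibody sections, against 12997 and 23366 at the edge and 8552 and 21181 in the interior of the ICI-alone sections. So was the resident macrophage list, at 318 and 507 at the edge and 275 and 334 in the interior of the antibody sections, against 533 and 748 at the edge and 385 and 421 in the interior of the ICI-alone sections. The part of these lists was not tested. None of the 8 genes passed the edgeR test, added after these values were seen, of a difference in the edge contrast between treatments (0% of genes called, 1679 genes and 1 of the 8 at an unadjusted p under 0.05), with C3ar1 at 0.45 ± 0.12 and an edgeR adjusted p of 0.304.

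**Figure D5:**
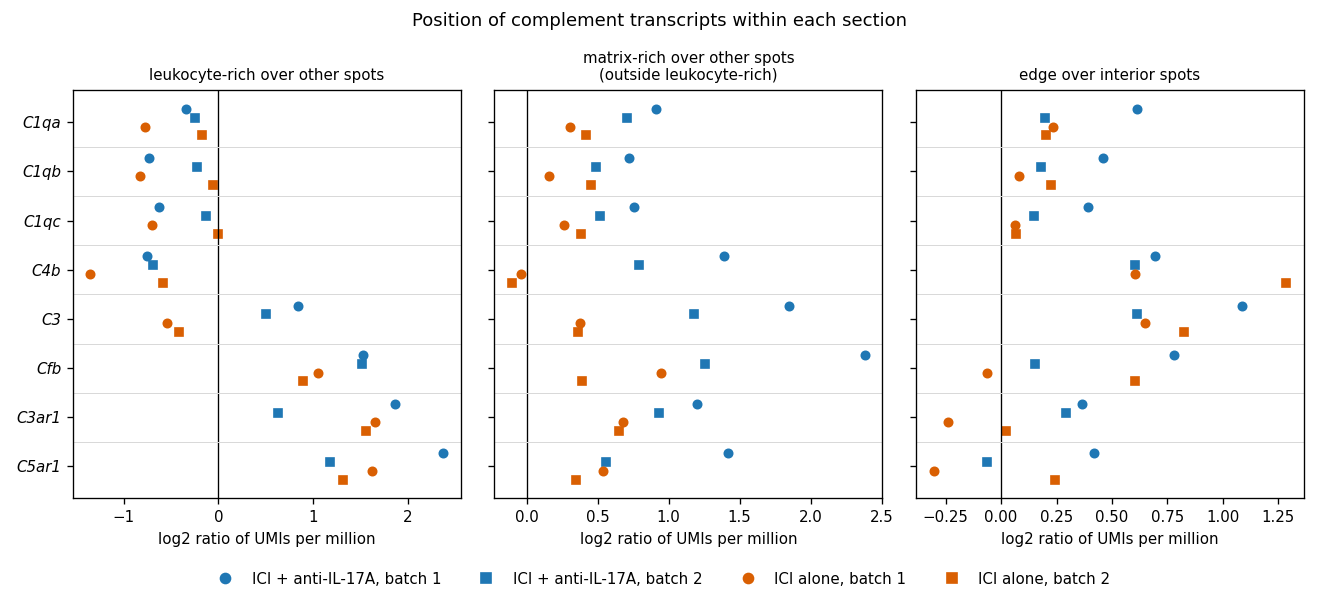
Log2 ratio of CPM (x axis) between leukocyte-rich and other spots (left), matrix-rich and other spots outside the leukocyte-rich class (middle) and edge and interior spots (right), with 1 point a section (blue antibody above orange ICI alone, circles batch 1, squares batch 2). C3ar1, C5ar1 and Cfb are right of 0 in the left panel in all 4 sections, C4b left of it, and C3 splits by treatment; in the right panel C3 and C4b are right of 0 in all 4 sections.

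The authors' deposited table of Moran's I, a score of how far like values lie next to each other, was above 0 for all 8 genes in all sections. In the authors' deposited table Cfb had 0.702 and 0.530 in the antibody sections and 0.586 and 0.363 in the ICI-alone sections. The same authors' deposited table gave C3 at 0.612 and 0.543 in the antibody sections and 0.464 and 0.575 in the ICI-alone sections. For C3ar1 the authors' deposited table had 0.356 and 0.129 in the antibody sections and 0.546 and 0.459 in the ICI-alone sections. As counted from the authors' deposited table, Cfb ranked within the top 0.687% and 0.541% of the genes listed for the antibody sections. In the ICI-alone sections of that authors' deposited table it ranked within the top 2.14% and 4.73%. By the same count from the authors' deposited table, C3 was within 1.53% and 0.479% in the antibody sections and 3.83% and 1.71% in the ICI-alone sections. C3ar1 was, by that count from the authors' deposited table, within 4.86% and 7.33% in the antibody sections. In the ICI-alone sections it was within 2.67% and 3.08%. Median UMIs per spot were 18342 and 12298 in the antibody sections and 27912 and 20622.5 in the ICI-alone sections. The part of this depth in the scores was not tested.

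Likeness of pattern was measured as the Pearson correlation of log2(CPM + 10) over blocks of 6 rows by 12 columns of the grid within a section, averaged over the 4 sections (77 and 86 blocks in the antibody sections, 80 and 95 in the ICI-alone sections). Blocks of a section share its library and depth, so the values are descriptions. The C1q genes followed each other at a mean r of 0.91 to 0.92. C3ar1 and C5ar1 had a mean r of 0.83 (from 0.60 to 0.94 over the sections), and C3 and C4b 0.72 (0.69 to 0.78). C5ar1 and C4b had opposite signs by treatment, at 0.23 and 0.24 in the antibody sections and -0.31 and -0.29 in the ICI-alone sections. The mean r with the macrophage list was high in every section for C3ar1 (0.90, from 0.81 to 0.96), C5ar1 (0.89, from 0.76 to 0.95) and Cfb (0.87, from 0.79 to 0.91), and lower for C1qa (0.56, from 0.37 to 0.73). For C3 (0.39, from -0.20 to 0.83) and C4b (0.07, from -0.27 to 0.43) the sections differed in sign. With a list of resident macrophage genes C4b was positive in every section (mean r 0.62, from 0.37 to 0.78), and C3 was not (0.34, from -0.21 to 0.77). The receptors were negative with it in every section, at a mean r of -0.36 for C3ar1 (-0.52 to -0.086) and -0.47 for C5ar1 (-0.60 to -0.23). The fibroblast list had a mean r of 0.72 with C3ar1, 0.66 with C5ar1 and 0.73 with Cfb. For the T cell list these values were 0.67, 0.64 and 0.76, and for the neutrophil list 0.68, 0.72 and 0.74. C1qa had 0.66 with the fibroblast list (0.50 to 0.76) and 0.59 with the T cell list, above its macrophage value. The endothelial and cardiomyocyte lists were negative with C3ar1, C5ar1, Cfb and C1qa in every section.

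Of 6604 genes compared, those most like each gene were named. For C1qa they were Ly86 (0.75), which encodes MD-1, the partner of the receptor RP105, Ccr2 (0.74), the chemokine receptor of monocytes, and H2-Aa (0.73), an MHC class II chain. C1qb and C1qc shared Ly86 (0.73 and 0.77) and Lgmn (0.72 and 0.73), which encodes the lysosomal protease legumain, followed by Ccr2 (0.70) for C1qb and H2-Aa (0.73) for C1qc. The order depended on block size. With blocks of 4 rows by 8 columns Col3a1, a collagen gene named for this reason, was at rank 1 for C1qa (0.72). Ly86 was then at rank 7 for C1qa (0.68), and Ccl8 at rank 1 for C1qb and C1qc (0.69 each). In the main blocks C1qa and Ccr2 ran from 0.54 to 0.83 over the sections. C3 was most like C1ra (0.85), a protease of the C1 complex, Serping1 (0.81), the C1 inhibitor, and the chemokine gene Ccl8 (0.76). For C4b, Ccl8 (0.66) and Igfbp4 (0.62) are given, the second of which encodes a binding protein of insulin-like growth factors. Cfb was most like Ly6e (0.91), Tmsb4x (0.90) and Gatm (0.90). C3ar1 was most like Grn (0.89), Ctss (0.89) and Npc2 (0.87), which encode progranulin, cathepsin S and a lysosomal cholesterol carrier. C5ar1 was most like Sdcbp (0.89), Fcgr3 (0.88), an Fc receptor, and Cd68 (0.87), a macrophage marker; Fcgr3 and Cd68 belong to the leukocyte panel.

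Of the other complement genes, 39 were tested in whole sections, where 2 rose and 7 fell, against 3.03% of all genes that rose and 8.81% that fell. Among those that fell, Cfp, which encodes properdin and stabilises the alternative convertase, had 49.98 and 53.1 CPM in the antibody sections, against 102 and 137 in the ICI-alone sections (log2 fold change -1.21 ± 0.18, SE; edgeR adjusted p 0.0222). Itgam, the alpha chain of complement receptor CR3, had 64.8 and 42.9 in the antibody sections, against 146 and 219 in the ICI-alone sections (-1.76 ± 0.27, adjusted p 0.0225, edgeR). Clu, which encodes clusterin, an inhibitor of the terminal complex, had 655 and 801 in the antibody sections, against 2685 and 3001 in the ICI-alone sections (-1.97 ± 0.31, adjusted p 0.0225, edgeR). In each of these the groups stood apart. Vsig4, a macrophage receptor for C3b, and Colec12, a scavenger receptor of the collectin family, fell by 1.52 and 0.96 on the log2 scale (edgeR adjusted p 0.0229 and 0.0345). Vtn, which encodes vitronectin, another inhibitor of the terminal complex, had 16.7 and 14.0 in the antibody sections, against 7.35 and 4.88 in the ICI-alone sections (1.33 ± 0.23, adjusted p 0.0242, edgeR), and rose, as did Colec11, named because it was the only other riser. Itgam passed in every alternative run, whereas Clu missed the threshold in some (highest adjusted p 0.142).

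By position, 8 of the 38 other complement genes tested were higher in leukocyte-rich spots and 11 lower, against 21.6% of all genes higher and 24% lower. The CR3 and CR4 integrin genes Itgam, Itgax and Itgb2 were higher at log2 ratios of 2.56, 2.41 and 2.57 (edgeR adjusted p 2.23e-05, 1.58e-05 and 1.99e-05). C7, a part of the terminal complex, Cd59a, a membrane inhibitor of that complex, and Vsig4 were lower, at -3.28, -2.66 and -2.64 (edgeR adjusted p 2.61e-05, 2.84e-05 and 6.81e-05). In matrix-rich spots 10 of 36 were higher, against 17.9% of all genes, and 4 lower. Serping1 was higher there by 0.81 ± 0.15, Cfp by 1.22 ± 0.23 and Colec12 by 0.72 ± 0.08, while Vtn, Cd59a and C1qbp, which encodes a mitochondrial protein first described as a C1q binder, were lower at -1.44, -1.01 and -0.66. At the edge 5 of 36 were higher, against 1.32% of all genes, among them C2 (0.82 ± 0.14), Cfd (1.81 ± 0.34), C1ra (0.42 ± 0.08) and C7 (0.76 ± 0.15). C2 encodes the partner of C4b in the classical C3 convertase, and Cfd the protease factor D that cleaves factor B. Cfd had 50 and 24 UMIs at the edge of the antibody sections and 274 and 22 at that of the ICI-alone sections. Its log2 ratios of edge over interior were 1.86 and 0.10 in the antibody sections and 2.72 and 1.95 in the ICI-alone sections. C1ra, the gene most like C3 by block, was thus also higher at the edge, as was C3 itself. In the other spots Itgam, Vsig4, Clu, Cfp and Masp1, a protease gene of the lectin branch, fell and Vtn rose with the antibody, at log2 fold changes of -1.51, -1.63, -2.15, -1.26, -1.24 and 1.26. In leukocyte-rich spots Cd93, which encodes a membrane C-type lectin, was the other complement gene called, at -1.24 ± 0.15 (edgeR adjusted p 0.0431).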

How the data were processed

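The authors deposited, for each of 4 sections, a matrix of unnormalized UMI counts over the spots under tissue, made with Space Ranger 2.1.0 per the file headers, with spot grid positions (other deposited values, used only for place). Per the submitters' processing notes the build was mm10 and Seurat 5.1.0 was used, with no role given; which probe set was used is not stated in those sources. Moran's I is a score that the authors deposited together with an adjusted p-value and UMI totals for every gene, which equalled the matrix sums for the 8 genes. The deposited scale factors were not used. The 8 genes and all gene lists were chosen with earlier results of these data known.

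Counts were summed per section and spot class, filtered with filterByExpr, scaled with TMM and tested with edgeR 4.0.16 (R 4.3.3), with Benjamini-Hochberg adjustment at 0.05. Standard errors come from the fold change and its F statistic. Spot classes were compared with the section as a block, and panel genes were left out of the tests that their classes define. The leukocyte threshold was set so that no more than 10% of spots passed it, with equal weight for each section. Alternatives were DESeq2 1.42.0, other scalings, filters, thresholds and thinning, leaving out each section, atrial-rich spots or leukocyte-rich spots at the edge, and the batch number as a block. The labels call that number a batch, so it pairs sections across groups, and deviations of same-batch sections from their group means correlated at 0.175 over 18817 genes. The genes named are the 8, up to 6 other complement genes per test by p, and the 3 most like genes; 1 gene that this rule names is not reported here. Genes for likeness had at least 20 CPM in every section. The tests were checked on simulated counts. Python 3.11.15, numpy 2.4.6, scipy 1.17.1, pandas 2.3.3 and matplotlib 3.10.9 were used.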

Additional observations from a re-analysis of the deposited data

Results flagged for a closer look

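Both results here come from the test of whether the contrast between leukocyte-rich and other spots differs between treatments. For Cd93, a membrane lectin gene, that difference was -1.55 on the log2 scale (edgeR adjusted p 0.0147). Its log2 ratio of leukocyte-rich over other spots was -1.08 and -0.86 in the antibody sections and 0.50 and 0.53 in the ICI-alone sections. Over 11 alternatives its adjusted p ran from 9.88e-05 to 0.407, the highest without ICI-alone batch 2. For Cfi, the gene of the protease factor I, the difference was 2.83 (edgeR adjusted p 0.0476), on 18 and 4 UMIs in leukocyte-rich spots of the antibody sections and 12 and 31 in those of the ICI-alone sections. Its log2 ratios were 1.99 and 0.11 in the antibody sections and -1.21 and -1.76 in the ICI-alone sections, and its adjusted p ran from 0.00361 to 0.645 over 10 alternatives. In leukocyte-rich spots the endothelial marker list summed to 233 and 245 CPM in the antibody sections and 298 and 281 in the ICI-alone sections; its part in the Cd93 result was not tested.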

How the results depend on the processing

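With 2 sections a group, calls depended on single sections, and the cause was not tested where a count moved. The number of genes called in whole sections, 2229, ran from 329 to 4479 when 1 section was left out, and was 3839 with the batch block, 821 with a filter of 10 CPM and 1480 without atrial-rich spots; the number of the 8 genes called, 2, ran from 2 to 5, and was 5 with the block and 4 by DESeq2. In leukocyte-rich spots, where 132 genes and 0 of the 8 were called, leaving out a section gave 8 to 678 genes and 0 to 5 of the 8. There the block gave 13 genes, library size alone 330, DESeq2 540 (2 of the 8), no filter 891 (2), the 10 CPM filter 82, the 5% threshold 10, the 20% threshold 1 of the 8, no thinning 591 (2) and the macrophage list 0 genes. Without 1 section C4b ran from -0.99 to 0.23 and Cfb from -0.090 to 0.57 there. In the other spots 1375 genes and 2 of the 8 were called, with 6 to 2985 genes and 0 to 5 of the 8 without 1 section; the block gave 4144 (5 of the 8), library size alone 828, DESeq2 2694 (4), no filter 2102, the 10 CPM filter 0 (0), the 5% and 20% thresholds 2131 and 625, and the macrophage list 2095. The replicate block changed no call of the 8 genes beyond C1qa, C1qc and C4b in whole sections and other spots. For C3 between leukocyte-rich and other spots, the log2 ratio of 0.03 was -0.071 at the 5% threshold and -0.013 without thinning, and ran from -0.21 to 0.23 without 1 section.

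The interaction of that class with treatment, 180 genes and 0 of the 8, ran from 3 to 1910 genes and 0 to 2 of the 8 without 1 section, and was 39 genes with library size alone, 0 with the 10 CPM filter, 20 at the 20% threshold, 404 without thinning, 23 with the macrophage list, and 1 of the 8 by DESeq2. The matrix-rich contrast, 5776 genes and 7 of the 8, ran from 3212 to 5488 genes and 1 to 6 of the 8, and its interaction with treatment, 0 genes, from 3 to 417 genes and 0 to 4 of the 8. The edge contrast, 342 genes and 2 of the 8, ran from 73 to 948 genes, and was 640 by DESeq2, 96 with the 10 CPM filter and 12 (0 of the 8) with an edge 2 spots deep; its interaction ran from 7 to 978 genes. At the edge C3ar1 ran from -0.013 to 0.14 and C5ar1 from -0.059 to 0.12 without 1 section. Of the log2 fold changes recomputed for the genes named, 819 kept direction and side of the threshold, 91 lost a call, 41 gained one and 9 reversed, the 9 all uncalled.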
